A study of Arabidopsis thaliana with 15 samples.

Results

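The genes described here encode proteins of the cytosolic ribosome of Arabidopsis thaliana, the particle that translates messenger RNA outside the chloroplast and the mitochondrion. They come from a list of 52 loci for proteins of the small (40S) and the large (60S) ribosomal subunit. A locus was kept where a probe set of the ATH1 microarray paired with it and with no other gene, which left 26 loci with 1 probe set each, 13 of them for each subunit, among 22746 probe sets measured in all. The 26 loci left out had no such probe set in the tables used here, and some of them (RPL9B with RPL9C, for example) share a probe set with another gene. Names follow the Arabidopsis ribosomal protein nomenclature, in which a letter marks each gene of a family, since the tables give many of these loci by locus code alone. The probe set of RPS5B belongs to a class that may also bind transcripts of a close relative. The probe sets of RPS18A and RPL5A could be named only from the study's lists of genes that differed between these conditions, so the differences of these genes are not independent evidence.

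Each ribosomal subunit is built from ribosomal RNA and many different proteins. The small subunit holds the messenger RNA and reads its codons, and the large subunit joins the amino acids and carries the P stalk, on which the elongation factors act. In Arabidopsis most of these proteins are made from small families of nearly identical genes, and mature pollen grains store both ribosomes and messenger RNA, which the growing tube uses for rapid protein synthesis.

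The 15 arrays fall into 4 conditions, all of wild type pollen of the Columbia (Col-0) accession. Pollen tubes grown semi in vivo (SIV PT, 3 arrays) had passed through the stigma and style of a cut pistil and out onto solid growth medium, and were cut off where they emerged. By the study's methods these pistils came from the male sterile mutant ms1 of the Landsberg ecotype, unlike the pollen. Each replicate pooled 800 pollen tube bundles. Dry pollen (4 arrays) was ungerminated pollen from mature flowers. Pollen kept in liquid growth medium without a pistil was sampled after 0.5 h (0.5 h PT, 4 arrays) and after 4 h (4 h PT, 4 arrays). Array targets were made from 2 µg of total RNA for SIV PT and from 5 µg for the other conditions, so the amount of starting RNA and the growth through a pistil cannot be told apart. The values are scaled signals, in arbitrary units that give every array the same trimmed mean. The total signal was nevertheless lower on every SIV PT array, at 21869300 to 22867300 against 30275600 to 33614100 on the others. Its part in the differences below was not tested. Signals of different probe sets cannot be read as relative amounts of transcript. In whole samples of this kind, fewer cells of a type and less RNA per cell cannot be told apart.

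Of 10 listed genes of the pollen vegetative cell and tube, 5 were measured, and all 5 were above the limit used here for expression, a mean log2 signal of 8, in every condition. Their summed signal was lower on every SIV PT array, at 82473 to 86494 against 105693 to 131195 on the others. The sum does not speak for all 5 genes. By far the largest fall was that of the receptor kinase gene PRK2A, which averaged 7862 in SIV PT against 46470.1 in dry pollen. ANX2 averaged 30156 in SIV PT against 32501 in dry pollen, and CNGC18 3424 against 4510. Higher in SIV PT were ANX1, another receptor kinase gene of the tube tip (23389 against 11620.1), and CPK34 (19311 against 16110). The 1 measured of 4 sperm cell genes, MGH3, ranged from 5988 to 8157 in SIV PT against 7935 to 10286 on the other arrays. Their part in the results was not tested. Of 13 listed genes of the pistil, 3 were measured and none reached that limit; their summed signal was 124 to 397 on the SIV PT arrays, against 165 to 284 in dry pollen, then 126 to 383 in 0.5 h PT and 165 to 221 in 4 h PT. The 2 measured of 9 genes of green tissue were also below the limit in every condition. The ratio of 3′ to 5′ control probe sets, which depends on how complete the labelled RNA is, was higher on every SIV PT array than on every other array for 3 of 6 control pairs (GAPDH, 6.59 to 9.72 in SIV PT against 1.25 to 2.88 elsewhere). Its part in the differences below was not tested.

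As a group, the 26 measured genes gave more signal in SIV PT than in pollen or in tubes grown without a pistil. They stand for 15 ribosomal proteins, and ribosomal protein genes outside these 26 are not described. RPS18A and RPL5A, named only from the study's lists of genes that differed, are among the 26. The 26 signals summed to 7980 to 8551 on the SIV PT arrays, against 4474 to 5211 in dry pollen, then 3719 to 4559 in 0.5 h PT and 4305 to 4470 in 4 h PT. The median of the 26 signals on an array was 221 to 239 in SIV PT, against 134 to 178 in dry pollen, then 64.5 to 98.9 in 0.5 h PT and 88.3 to 144 in 4 h PT. Every SIV PT array lay above every other array in both measures. The sum leans on RPS13B, which averaged 2022 in SIV PT against 669 in dry pollen. In SIV PT 12 of the 26 genes (46.2%) reached the expression limit, beside 26.3% of all probe sets. The count was 6 genes in dry pollen, then 4 in 0.5 h PT and 3 in 4 h PT, beside 21.7%, 21.9% and 22.5% of all probe sets. These counts depend on the limit: at a signal of 100 they were 19 in SIV PT, against 17 in dry pollen, then 11 in 0.5 h PT and 13 in 4 h PT. RPS5B and RPS13B reached the limit in all 4 conditions. RPS8A, RPS10C, RPS14A, RPS21C, RPS27A, RPL7B and RPL23aA did so in SIV PT and in no other condition. RPP0A did so in every condition but SIV PT, and 13 genes stayed below it throughout. Several of these calls rest on mean log2 signals close to the limit of 8. In SIV PT, RPS10C was at 8.003, RPL7B at 8.023 and RPP0A at 7.88. RPS21C was at 7.76 to 7.87 outside SIV PT, and RPS27A at 7.88 in 4 h PT. RPS8A, RPS14A and RPL23aA lay further from the limit, at 8.21 or more in SIV PT and 7.49 or less elsewhere. The share of all probe sets with these patterns was not computed.

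**Figure D1:**
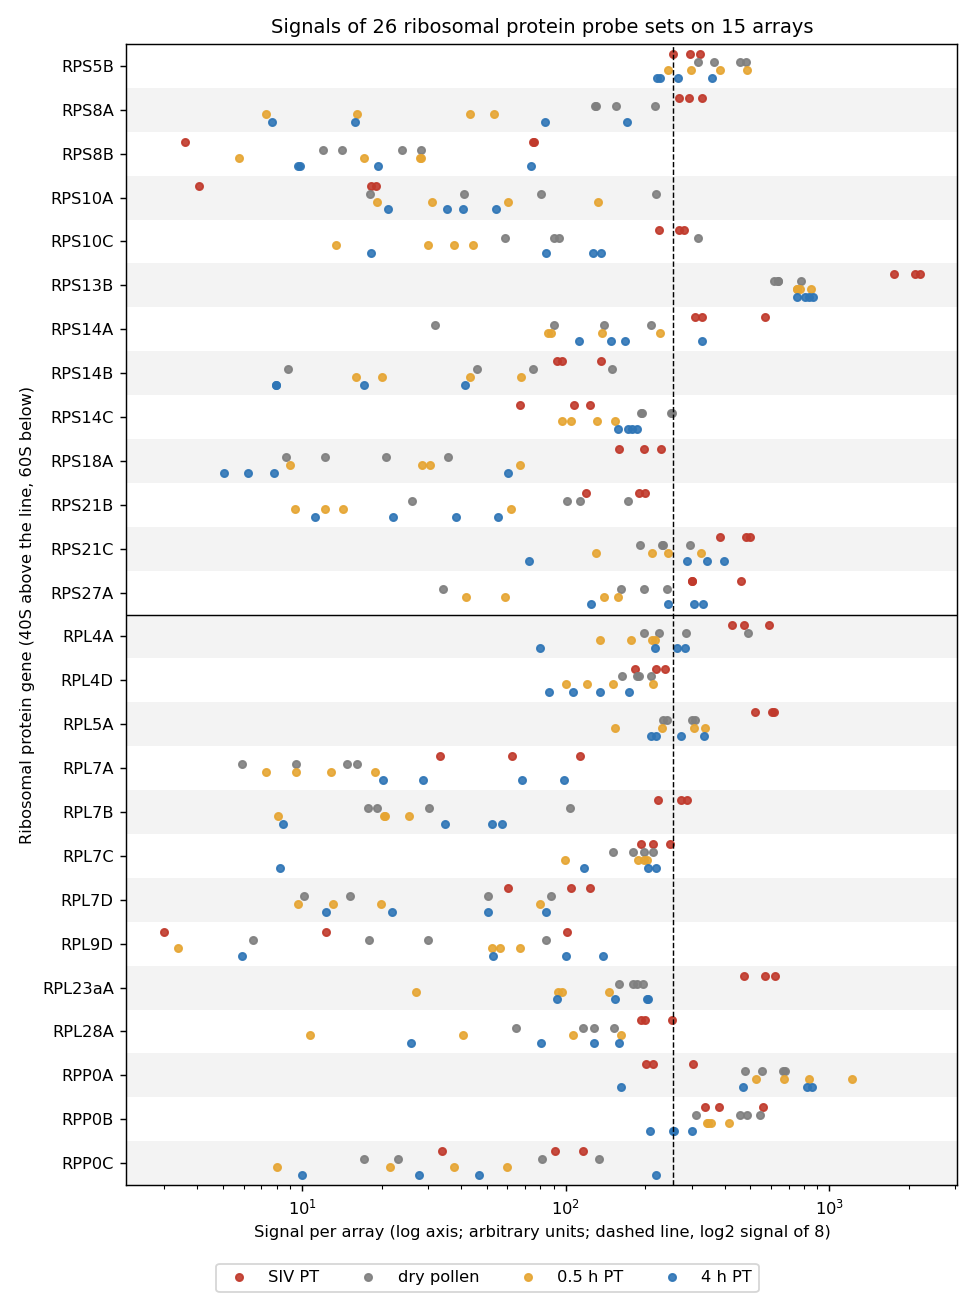
Signal (horizontal, log axis, arbitrary units) of each of the 26 ribosomal protein probe sets (rows, 40S above the line and 60S below) on the 15 arrays; each point is 1 array, coloured by condition, and the dashed line is a log2 signal of 8. The 3 SIV PT points of RPS13B, RPL5A, RPL7B and RPL23aA lie to the right of all other points of their row, and those of RPP0A lie to the left of all but 1.

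Pistil-grown tubes were first set against 4 h PT, the pollen grown longest without a pistil. By the study's methods, part of the grains in the 4 h samples did not germinate. These samples thus held grains as well as tubes, whereas SIV PT was made of cut tubes. By the same methods SIV PT had also grown for longer in total, and on solid rather than liquid medium. These differences and the growth through a pistil cannot be told apart. Changes were fitted with limma on log2(signal + 64), and a gene was called changed where B, the log odds of a difference, was above 3 and the change was at least 3-fold; because 64 was added to each signal, changes of dim genes are understated. By this rule 2 of the 26 genes rose in SIV PT, RPS18A and RPL7B (background 2.71% of all probe sets higher), and 0 fell (2.08%). RPS18A, and RPL5A in the counts that follow, were named only from the study's lists of genes that differed. Their calls were thus favoured in advance, and counts that include them cannot be set against the background without that limit. At an adjusted p under 0.05, with no limit on the fold, 11 were higher (12.9% of all probe sets) and 1 was lower (9.04%). The 11 were RPS8A, RPS10C, RPS13B, RPS14B, RPS18A and RPS21B of the small subunit and RPL4A, RPL5A, RPL7B, RPL23aA and RPP0B of the large subunit; RPS14C was lower. The SIV PT arrays lay wholly above the 4 h PT arrays for 13 genes (15.3% of all probe sets) and wholly below them for 2, RPS10A and RPS14C (13.2%). The median change over the 26 genes was 0.71 on the log2 scale, beside -0.07 over all probe sets, and 22 of the 26 changes were above 0 (44.7% of all probe sets). RPS18A and RPL5A are included in both, so the same limit holds. With only expressed probe sets in the fit, the median of all probe sets was higher, as given in the closing section. Among the 13334 probe sets that the platform table names, 11.1% were higher at an adjusted p under 0.05.

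Against dry pollen, which asks what differs between the ungerminated grain and the tube that has passed the pistil, the same 2 genes, RPS18A and RPL7B, rose (background 4.08%) and 0 genes fell (2.82%); this comparison shares the SIV PT arrays with the one above. At an adjusted p under 0.05, 7 genes were higher (14.1% of all probe sets): RPS13B, RPS14A, RPS18A, RPL5A, RPL7A, RPL7B and RPL23aA. RPS14C was the 1 gene lower (10.7%). Without RPS18A and RPL5A, an alternative chosen after seeing the data, 6 genes passed, 5 higher and 1 lower. The SIV PT arrays lay wholly above those of dry pollen for 11 genes (17.6%) and wholly below them for RPS14C and RPP0A (16.3%). The median change was 0.65, beside -0.06 over all probe sets, and 20 of 26 changes were above 0 (45.3% of all probe sets). Both include RPS18A and RPL5A, and without these the median change was 0.60. With quantile normalization of the arrays the split at an adjusted p under 0.05 was 5 higher and 3 lower.

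**Figure D2:**
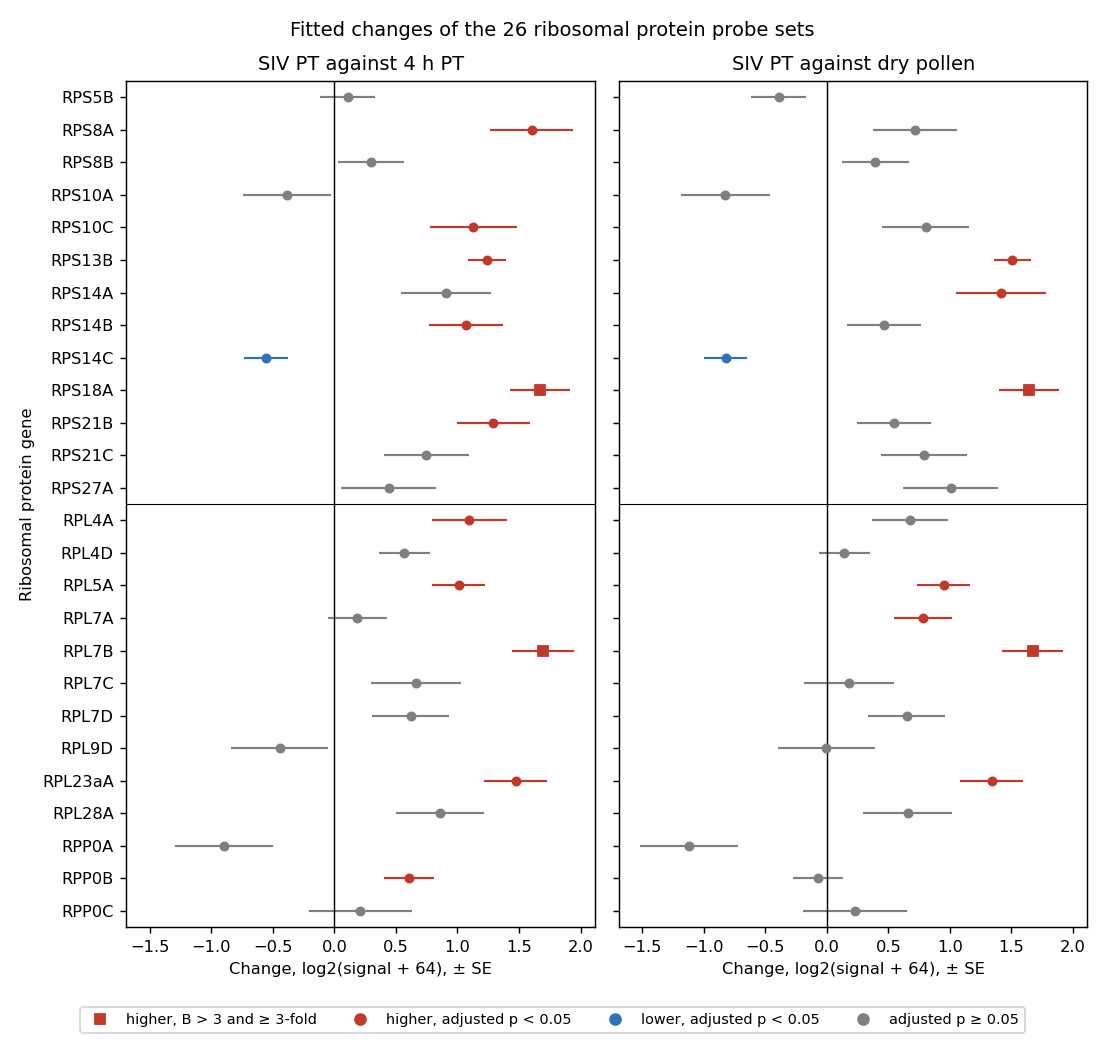
Fitted change of each ribosomal protein gene in SIV PT against 4 h PT (left) and against dry pollen (right), as log2(signal + 64) with its standard error; squares passed B above 3 and 3-fold, red and blue points were higher and lower at an adjusted p under 0.05, and grey points were not. RPS18A and RPL7B are the squares in both panels, at 1.64 to 1.69, and RPS14C is blue in both.

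RPS18A (AT1G22780, also known as POINTED FIRST LEAF) encodes a protein of the head of the small subunit, and its loss is known to alter leaf shape. Its signals were 198, 229 and 159 on the SIV PT arrays. They were 12.1, 20.8, 8.66 and 35.7 in dry pollen, then 8.97, 67.2, 28.4 and 30.5 in 0.5 h PT and 6.25, 5.04, 7.84 and 60.3 in 4 h PT. No SIV PT array overlapped any other array, yet the gene stayed below the expression limit in SIV PT. The limma change was 1.67 ± 0.24 (SE) against 4 h PT (adjusted p = 9.59e-05, B = 4.01) and 1.64 ± 0.24 against dry pollen (adjusted p = 8.08e-05, B = 3.78). With any 1 SIV PT array left out, B fell below 3, between 1.39 and 2.87 over both comparisons, while the highest adjusted p was 0.00102. The same held without replicate 1, 2 or 3 of dry pollen (B from 2.18 to 2.47, against dry pollen) or of 4 h PT (B from 2.39 to 2.42, against 4 h PT).

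RPS13B (AT3G60770), another protein of the small subunit, had the brightest of the 26 probe sets. It measured 2199, 2111 and 1755 in SIV PT. In dry pollen it measured 779.6, 640.2, 615 and 639.9, in 0.5 h PT 750.2, 852, 756 and 775, and in 4 h PT 865, 808, 754 and 835. All SIV PT arrays were at 1755 or more and all others at 865 or less, whereas the 3 other conditions lay close to one another. The change was 1.24 ± 0.15 against 4 h PT (limma, adjusted p = 1.84e-05), a fold of 2.36, and 1.51 ± 0.15 against dry pollen (adjusted p = 1.43e-06), a fold of 2.84, both under the 3-fold limit. Over all settings tried its adjusted p in these comparisons was at most 0.000257.

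RPS8A (AT5G20290) was measured at 268, 293 and 329 in SIV PT. It was at 129, 217, 155 and 129.6 in dry pollen, then 16.1, 7.26, 53.3 and 43.4 in 0.5 h PT, and 83.1, 15.9, 171 and 7.66 in 4 h PT. The SIV PT arrays lay above all others and dry pollen lay above all of 0.5 h PT, while 4 h PT spread over both. The change was 1.60 ± 0.34 against 4 h PT (limma, adjusted p = 0.0024) and 0.72 ± 0.34 against dry pollen (adjusted p = 0.154). Its relative RPS8B (AT5G59240) was dim, with 75.4, 74.8 and 3.58 in SIV PT, 14.2, 12, 28.2 and 23.8 in dry pollen, then 28.1, 28.2, 17.1 and 5.76 in 0.5 h PT, and 9.77, 19.5, 74 and 9.61 in 4 h PT. Its SIV PT arrays overlapped all conditions, and it did not pass (adjusted p = 0.522 against 4 h PT and 0.36 against dry pollen).

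The 2 measured RPS10 genes gave changes of opposite sign. RPS10C (AT5G52650) ranged from 225 to 279 in SIV PT, from 59.0 to 316 in dry pollen, from 13.5 to 44.4 in 0.5 h PT and from 18.2 to 136 in 4 h PT. Its change was 1.13 ± 0.35 against 4 h PT (limma, adjusted p = 0.0311), a call lost without any single SIV PT array or without replicate 1 or 2 of 4 h PT (adjusted p from 0.0561 to 0.0948), with 16 added to the signals as the offset in place of 64 (0.0602) or with quantile normalization (0.07). RPS10A (AT4G25740) gave 4.05, 19.1 and 18.2 in SIV PT, 80.1, 18.1, 41.1 and 219 in dry pollen, then 133, 30.9, 19.2 and 60.5 in 0.5 h PT, and 40.9, 21.2, 35.6 and 54.2 in 4 h PT. Every SIV PT value of RPS10A was below every 4 h PT value, though all were dim, and its changes of -0.39 ± 0.36 against 4 h PT and -0.82 ± 0.36 against dry pollen did not pass (adjusted p = 0.531 and 0.119). The change of RPS10A against 4 h PT minus that of RPS10C was -1.52 (exact permutation p = 0.0286, adjusted p = 0.131 over the 32 tests of paralogs described below).

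Among the other small subunit genes, RPS21B (AT3G53890) ranged from 119.6 to 200.5 in SIV PT, 26.1 to 173 in dry pollen, then 9.39 to 61.8 in 0.5 h PT and 11.2 to 55.1 in 4 h PT, with a change of 1.29 ± 0.30 against 4 h PT (limma, adjusted p = 0.00473). RPS21C (AT5G27700) was brighter in SIV PT than in dry pollen on every array (385 to 500.4 against 190.5 to 295), but the change of 0.79 ± 0.35 did not pass (adjusted p = 0.12). RPS27A (AT2G45710) did not overlap in that comparison and did not pass, at 301 to 461 in SIV PT against 34.1 to 243 in dry pollen (1.01 ± 0.38, adjusted p = 0.0716). In 4 h PT it ranged from 124 to 332, which overlapped SIV PT. RPS5B (AT2G37270), a protein near the mRNA exit of the small subunit, gave 254, 322 and 296 in SIV PT, 316, 458, 481 and 365 in dry pollen, then 244, 486, 299 and 383 in 0.5 h PT, and 266, 358, 222 and 228 in 4 h PT. All 4 conditions of RPS5B overlapped, and its changes were 0.11 ± 0.22 against 4 h PT and -0.39 ± 0.22 against dry pollen (adjusted p = 0.801 and 0.247).

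In the large subunit, RPL7B (AT2G01250) and, in the small subunit, RPS18A had the highest changes of the 26 genes in both comparisons, and their order depended on the setting (with an offset of 16, 2.47 for RPL7B and 2.78 for RPS18A against 4 h PT, while RPS13B was highest with a larger offset). RPL7B gave 274, 287 and 224 in SIV PT. It gave 19.1, 30.1, 17.8 and 104 in dry pollen, then 8.11, 25.4, 20.4 and 20.6 in 0.5 h PT, and 8.46, 34.8, 52.4 and 57.4 in 4 h PT. All SIV PT arrays were above 224 or at it, and all others were at 104 or less. The limma change was 1.69 ± 0.25 against 4 h PT (adjusted p = 0.000109, B = 3.86) and 1.67 ± 0.25 against dry pollen (adjusted p = 8.83e-05, B = 3.66). As for RPS18A, B fell below 3 without any 1 SIV PT array (from 1.41 to 2.50), and its adjusted p was then at most 0.00103. Against dry pollen B was also below 3 without dry pollen replicate 1, 2 or 3 (2.04 to 2.10), 0.5 h PT replicate 3 or 4 (2.98 each) or 4 h PT replicate 2 (2.97), and against 4 h PT without 4 h PT replicate 1 or 2 (2.56 and 2.45). With quantile normalization its change in each comparison was under 3-fold (1.53 against 4 h PT).

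RPL23aA (AT2G39460), which sits beside the exit of the nascent peptide, gave 572, 475 and 623 in SIV PT. Its signals were 186, 196, 159 and 180.1 in dry pollen, then 27.1, 93.5, 145 and 97.0 in 0.5 h PT, and 92.7, 154, 204 and 203 in 4 h PT. The SIV PT arrays stood apart from all others, and the 0.5 h PT arrays lay below all of dry pollen. The change was 1.47 ± 0.26 against 4 h PT (limma, adjusted p = 0.000495) and 1.34 ± 0.26 against dry pollen (adjusted p = 0.00088), and it passed under every setting tried.

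RPL5A (AT3G25520, also ATL5 or PIGGYBACK 3) binds the 5S ribosomal RNA. It gave 607, 616 and 524 in SIV PT. It gave 300.3, 233, 243 and 309.8 in dry pollen, then 305, 154, 232 and 338 in 0.5 h PT, and 221, 210.3, 273 and 335 in 4 h PT. The SIV PT arrays lay above all 12 others, which overlapped one another. The change was 1.01 ± 0.22 against 4 h PT (limma, adjusted p = 0.00268) and 0.95 ± 0.22 against dry pollen (adjusted p = 0.00355). With quantile normalization it kept its direction and did not pass (adjusted p = 0.115 and 0.23).

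RPL4A (AT3G09630), whose protein lines the peptide exit tunnel, ranged from 425 to 592 in SIV PT, 198 to 490.3 in dry pollen, then 135 to 217 in 0.5 h PT and 79.8 to 283 in 4 h PT, with a change of 1.10 ± 0.31 against 4 h PT (limma, adjusted p = 0.0166). It did not pass without SIV PT replicate 3 (adjusted p = 0.074) or with quantile normalization (0.72, adjusted p = 0.131). RPL4D (AT5G02870) did not overlap between SIV PT and 4 h PT either (183 to 237 against 86.0 to 174), but its change of 0.57 ± 0.21 did not pass (adjusted p = 0.0636). The same held for RPL28A (AT2G19730), at 192 to 254 in SIV PT against 25.8 to 159 in 4 h PT (0.86 ± 0.36, adjusted p = 0.113). RPL9D (AT4G10450) was dim and scattered, with 3.0, 12.3 and 101 in SIV PT, 84.2, 29.9, 17.9 and 6.49 in dry pollen, then 66.7, 52.6, 56.0 and 3.39 in 0.5 h PT, and 5.92, 52.7, 139 and 100.2 in 4 h PT. Its conditions overlapped throughout, and its change was -0.44 ± 0.39 against 4 h PT (adjusted p = 0.51) and -0.00 ± 0.39 against dry pollen (adjusted p = 0.996).

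Members of 1 family passed in opposite directions. The RPS14 family, whose protein lies on the platform of the small subunit, was measured in full over the loci listed. RPS14A (AT2G36160) gave 308, 328 and 568 in SIV PT, 139, 210.4, 32.0 and 90.5 in dry pollen, then 227, 88.2, 85.6 and 137 in 0.5 h PT, and 112, 167, 148 and 327 in 4 h PT. RPS14B (AT3G11510) gave 92.6, 136 and 96.9 in SIV PT, 8.83, 74.9, 46.0 and 149 in dry pollen, then 67.6, 16.0, 43.2 and 20 in 0.5 h PT, and 41.5, 17.1, 7.92 and 7.94 in 4 h PT. RPS14A was higher in SIV PT than in dry pollen without overlap, and the SIV PT values of RPS14B all lay above its 4 h PT values. RPS14C (AT3G52580) ran the other way, with 123, 107 and 67.0 in SIV PT, 194, 194, 251 and 252 in dry pollen, then 131, 96.9, 153 and 104 in 0.5 h PT, and 172, 158, 186 and 178 in 4 h PT. Its SIV PT arrays lay below all dry pollen and all 4 h PT arrays and overlapped those of 0.5 h PT.

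The limma change of RPS14A was 1.41 ± 0.36 against dry pollen (adjusted p = 0.00815; 0.0536 without SIV PT replicate 3 and 0.0611 with quantile normalization) and 0.91 ± 0.36 against 4 h PT (adjusted p = 0.0945). That of RPS14B was 1.07 ± 0.30 against 4 h PT (adjusted p = 0.0168; 0.0754 without SIV PT replicate 2) and 0.47 ± 0.30 against dry pollen (adjusted p = 0.32). RPS14C changed by -0.82 ± 0.18 against dry pollen (adjusted p = 0.00227), and this passed under every setting tried. Against 4 h PT it changed by -0.56 ± 0.18 (adjusted p = 0.0341), which did not pass without SIV PT replicate 2 or 3, or 4 h PT replicate 1, 3 or 4 (adjusted p from 0.0538 to 0.166), nor after median centring (0.132), with quantile normalization (0.0948) or with an intensity trend in the prior (0.162). The difference between the changes of 2 paralogs was tested for all 16 pairs within a family against both dry pollen and 4 h PT, 32 tests in all, by an exact two-sided permutation of the arrays. RPS14A exceeded RPS14C by 2.24 on the log2 scale in the change against dry pollen (exact permutation p = 0.0286, adjusted p = 0.131), and RPS14B exceeded RPS14C by 1.63 in the change against 4 h PT (exact permutation p = 0.0286, adjusted p = 0.131). With 3 and 4 arrays 0.0286 is the smallest p possible, and 0 of the 32 tests passed after adjustment. A test at that smallest p could pass only if many of the 32 reached it as well. The count of 0 therefore cannot decide whether paralogs changed alike.

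The RPL7 family was measured at 4 loci. RPL7A (AT1G80750) was dim, with 113, 33.2 and 62.2 in SIV PT, 5.90, 14.8, 16.1 and 9.44 in dry pollen, then 18.8, 9.47, 7.28 and 12.8 in 0.5 h PT, and 68.0, 20.3, 98.7 and 28.8 in 4 h PT. Both SIV PT and 4 h PT lay above dry pollen and 0.5 h PT on every array and overlapped each other. The change of RPL7A was 0.78 ± 0.24 in SIV PT against dry pollen (limma, adjusted p = 0.024), lost without SIV PT replicate 1 or 3 or dry pollen replicate 1 (adjusted p from 0.0557 to 0.149) or with a larger offset (0.0528), and 0.19 ± 0.24 against 4 h PT (adjusted p = 0.668). The change of RPL7A against 4 h PT minus that of RPL7B was -1.51 on the log2 scale (exact permutation p = 0.0286, adjusted p = 0.131, of the same 32 tests). Against dry pollen, the change of RPL7A exceeded that of RPL7C by 0.60 (exact permutation p = 0.0286, adjusted p = 0.131). RPL7C (AT2G44120) and RPL7D (AT3G13580) did not pass in either comparison (adjusted p from 0.161 to 0.797). RPL7C ranged from 193 to 249 in SIV PT, 150.5 to 213 in dry pollen, then 99.4 to 203 in 0.5 h PT and 8.25 to 219 in 4 h PT, and RPL7D from 60.4 to 123 in SIV PT, 10.1 to 88.0 in dry pollen, then 9.63 to 80.0 in 0.5 h PT and 12.3 to 83.9 in 4 h PT.

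P0 is the protein that ties the P stalk to the large subunit. RPP0A (AT2G40010) was at 202, 214 and 303 in SIV PT, 477, 665, 679.9 and 553 in dry pollen, then 833, 1218, 527 and 672 in 0.5 h PT, and 858, 819, 468 and 162 in 4 h PT. Its SIV PT arrays lay below all of dry pollen and 0.5 h PT, and replicate 4 of 4 h PT lay lower still. The change was -1.12 ± 0.40 against dry pollen (limma, adjusted p = 0.0521), the lowest of the 26 genes but short of the threshold (it passed in 8 of 22 other settings), and -0.90 ± 0.40 against 4 h PT (adjusted p = 0.135; -1.33, adjusted p = 0.0034, without 4 h PT replicate 4). RPP0B (AT3G09200) gave 339, 382 and 561 in SIV PT, 311, 486, 543 and 458 in dry pollen, then 355, 343, 346 and 418 in 0.5 h PT, and 299.7, 254, 257 and 209 in 4 h PT. The 4 h PT arrays of RPP0B lay below every other array, and SIV PT overlapped dry pollen. Its change was 0.60 ± 0.20 against 4 h PT (limma, adjusted p = 0.0445), a call lost without SIV PT replicate 2 or 3, dry pollen replicate 2 or 4, any 0.5 h PT replicate, or 4 h PT replicate 2, 3 or 4 (adjusted p from 0.0514 to 0.219), with the smaller offset of 16 (0.0639) and with quantile normalization (0.24, adjusted p = 0.522). It was -0.07 ± 0.20 against dry pollen (adjusted p = 0.872). RPP0C (AT3G11250) was dim, at 34.0 to 117 in SIV PT, 17.2 to 134 in dry pollen, then 8.02 to 59.6 in 0.5 h PT and 9.98 to 220.3 in 4 h PT, and did not pass. The change of RPP0A against dry pollen differed from that of RPP0B by -1.05 and from that of RPP0C by -1.35 (exact permutation p = 0.0286 each, adjusted p = 0.131).

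**Figure D3:**
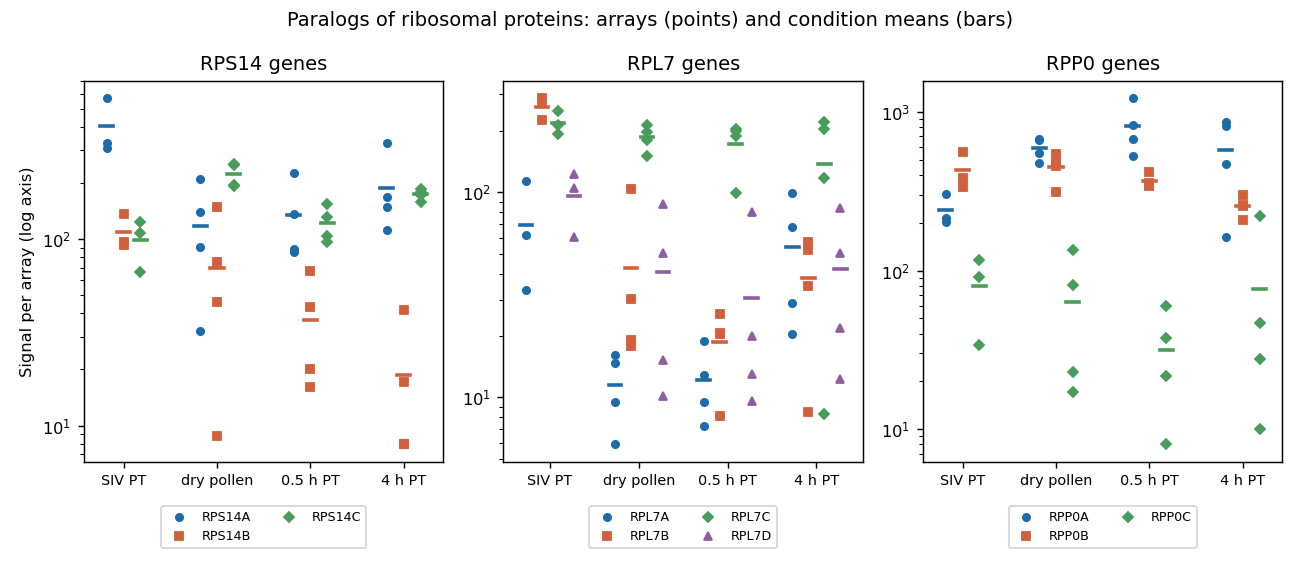
Signals (vertical, log axis, arbitrary units) of the measured RPS14, RPL7 and RPP0 genes by condition; points are arrays, bars are condition means, and each gene has its own colour and symbol. The SIV PT mean of RPS14A (402) is above its other means while that of RPS14C (99.1) is below its own, and RPP0A averaged 239.7 in SIV PT against 594 in dry pollen.

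Growth without a pistil was followed by 3 comparisons, in which no ribosomal protein gene passed either rule. Against dry pollen, 4 h PT had 0 of 26 genes changed, with 0.717% of all probe sets higher and 0.0484% lower, and 0 genes at an adjusted p under 0.05, with 1.77% higher and 0.611% lower; at an unadjusted limma p under 0.05 there were 7 genes, 1 higher and 6 lower (13.1% of all probe sets). The count of genes was 0 by both rules for 4 h PT against 0.5 h PT (all probe sets 0.51% higher and 0% lower changed, 1.26% and 0.149% at an adjusted p under 0.05), with 5 genes at an unadjusted p under 0.05, 4 of them higher (11.2% of all). It was also 0 for 0.5 h PT against dry pollen (0.0264% and 0.0352% changed, 0.0791% and 0.0703% at an adjusted p under 0.05), with 5 genes at an unadjusted p under 0.05, all lower (6.05% of all). The shares of all probe sets at an unadjusted p count both directions together. The median change over the 26 genes was -0.17 in 4 h PT against dry pollen, 0.13 in 4 h PT against 0.5 h PT and -0.23 in 0.5 h PT against dry pollen, beside medians within 0.01 of 0 over all probe sets. In the last of these, 6 of 26 changes were above 0 (50.8% of all probe sets).

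RPS8A, RPS10C, RPS14C and RPL23aA were each lower on every 0.5 h PT array than on every dry pollen array (background 1.92%), and no gene was higher in that way (2.15%). Their limma changes were -1.25 ± 0.31, -0.96 ± 0.33, -0.63 ± 0.16 and -0.72 ± 0.24, with adjusted p of 0.272, 0.596, 0.305 and 0.582. After 4 h, RPL7A was higher than in dry pollen on every array (background 4.41%), by 0.59 ± 0.22 (adjusted p = 0.229), while RPS14C and RPP0B were lower (3.92%). RPP0B came nearest to the threshold, with -0.67 ± 0.19 (limma, adjusted p = 0.0835); it passed with a larger number added to the signals, with quantile normalization and with only expressed probe sets in the fit. In 4 h PT against 0.5 h PT, RPS14C and RPL7A were higher without overlap (3.54%) and RPP0B was lower (2.98%), and none passed (adjusted p from 0.31 to 0.422).

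**Figure D4:**
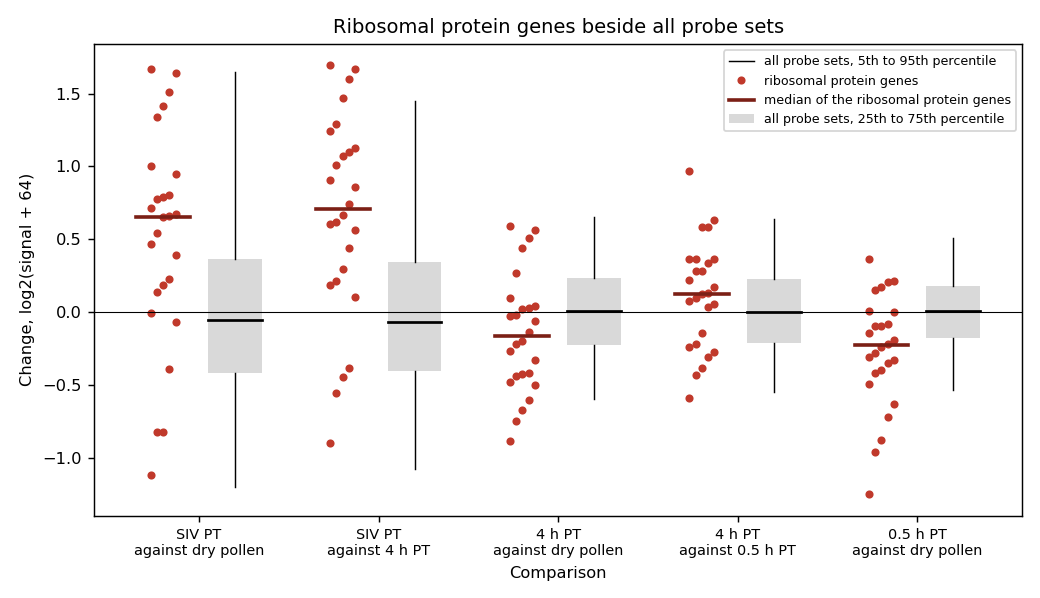
Fitted changes (vertical, log2(signal + 64)) of the 26 ribosomal protein genes (red points, with their median) beside those of all probe sets (grey bars, 25th to 75th percentile; lines, 5th to 95th percentile) in 5 comparisons. The medians of the ribosomal protein genes stand at 0.65 and 0.71 in the comparisons of SIV PT and between -0.23 and 0.13 in the others.

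Genes that act with the ribosome were looked at from lists of fixed loci. Of 31 listed initiation factors and poly(A)-binding proteins, which bring messenger RNA to the small subunit, 10 were measured. Against 4 h PT, 7 of the 10 were higher in SIV PT and 1 was lower at an adjusted p under 0.05 (12.9% and 9.04% of all probe sets), with a median change of 0.86 beside -0.07 over all probe sets, and none passed the 3-fold rule. Against dry pollen 6 were higher and 1 lower (14.1% and 10.7%), with a median of 0.81 beside -0.06. EIF4E (AT4G18040), the cap-binding protein, averaged 330.0 ± 44.0 in SIV PT (SD, n = 3) and 87.3 ± 41.0 in 4 h PT (SD, n = 4), a limma change of 1.42 ± 0.27 (adjusted p = 0.000932). It was named only from the study's lists of genes that differed. Both counts of higher genes include EIF4E, so they cannot be set against the background without that limit. PAB4 (AT2G23350), a poly(A)-binding protein, was the lower one, with 259.9 ± 95.4 in SIV PT and 596 ± 87.5 in 4 h PT and a change of -1.06 ± 0.24 (limma, adjusted p = 0.00466). AT2G40290, listed as an initiation factor, changed by 1.09 ± 0.32 (adjusted p = 0.0233).

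Of 24 genes listed for the assembly of ribosomes, a list that also held the RACK1 scaffold genes, 9 were measured. Against 4 h PT, 3 of them were higher in SIV PT and 0 lower at an adjusted p under 0.05 (12.9% and 9.04% of all probe sets), with a median change of 0.77 beside -0.07. Against dry pollen 5 were higher and 0 lower (14.1% and 10.7%), with a median of 0.82 beside -0.06. RACK1B (AT1G48630), a scaffold protein on the small subunit, averaged 955 ± 147 in SIV PT (SD, n = 3), 276 ± 45.4 in dry pollen and 289.8 ± 76.9 in 4 h PT (SD, n = 4 each). It rose against dry pollen (1.59 ± 0.21, limma adjusted p = 2.26e-05) and its change of 1.54 ± 0.21 against 4 h PT was just under 3-fold (adjusted p = 4.46e-05). RACK1B too was named only from lists of genes that differed. Both counts of higher genes include it, so the same limit holds for them. The Arabidopsis homolog of EBP1 (AT3G51800) changed by 1.32 ± 0.35 and AT2G40430 by 1.0 ± 0.28 against 4 h PT (adjusted p = 0.0114 and 0.0166). Of 12 listed elongation factor genes, 3 were measured, and 0 of them passed either rule in any of the 5 comparisons.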

How the data were processed

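Gene expression was measured on 15 ATH1 arrays. The authors hybridised biotin-labelled RNA and deposited, per the labels processed with GCOS (version not given in the sources used here), 1 scaled signal intensity per probe set, not log transformed; intensities were used as deposited, with a mean trimmed by 2% at each end nearly equal on all arrays. The study's methods normalized these arrays with others by RMA, which was not repeated here. Control probe sets (64) were left out and log2(intensity + 64) of the other 22746 was fitted with limma 3.58.1 in R 4.3.3, with 4 condition means over all 15 arrays (11 residual and 3.97 prior degrees of freedom). A gene was called changed at 3-fold or more with B above 3, and adjusted p are Benjamini-Hochberg values over all probe sets within a comparison. Expressed meant a mean log2 signal of at least 8. The number of arrays, 3 or 4 for a condition, limits the precision, and as the labels call the replicates biological without naming their source, p-values measure the spread between these samples.

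Probe sets were paired with loci through the platform's gene table (13334 probe sets) or locus codes in the study's supplementary tables (1949). The members, the lists of related genes and the rules were chosen with earlier results of these data known. All array values are given for genes that passed the 3-fold rule, the 4 brightest and 4 dimmest, the 4 highest and 4 lowest changes in SIV PT against dry pollen and against 4 h PT, and the RPS14 genes; of related genes, the 3 with the greatest change among those that passed against 4 h PT are named. Alternatives were other offsets, quantile normalization, median centring, a filter on dim probe sets, an intensity trend in the prior, a replicate block, leaving out each array, other expression limits and 2 narrower choices of members. The fit was tested on simulated data.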

Additional observations from a re-analysis of the deposited data

Results flagged for a closer look

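In 9 of 78 condition groups of 4 arrays, 1 array stood far from the other 3 by Dixon's test. Chance gives about 1 in 20 where values are normally distributed. The signals were tested without a log transform, and the groups share the same arrays. The count of 9 therefore cannot show whether such arrays were more frequent than chance gives. RPS18A was at 60.3 on replicate 4 of 4 h PT, against 5.04 to 7.84 on the others. RPL7B was at 104 on replicate 4 of dry pollen, against 17.8 to 30.1. RPS13B was at 779.6 on replicate 1 of dry pollen, against 615 to 640.2. RPS10C was at 316 on replicate 3 of dry pollen, against 59.0 to 94.5, and RPS8B at 74 on replicate 3 of 4 h PT, against 9.61 to 19.5. In 0.5 h PT, RPS21B was at 61.8 on replicate 2, against 9.39 to 14.3. On replicate 4 of 0.5 h PT, RPL7C was low at 99.4, against 188 to 203, RPL7D was high at 80.0, against 9.63 to 19.9, and RPP0B was high at 418, against 343 to 355.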

How the results depend on the processing

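The median change of the 26 genes in SIV PT stayed above 0 under every setting tried. Against dry pollen it was 0.84 with the smaller offset (16), 0.27 with the larger offset, 0.45 with quantile normalization and 0.58 to 0.66 without 1 array. Against 4 h PT it was 1.05, 0.41 with the same offsets, 1.01 with only expressed probe sets in the fit (where the median of all probe sets was 0.27, and 0.30 against dry pollen), and 0.64 to 0.80 without 1 array. The count of changed genes was less stable. It was 0 in both comparisons with either offset and with an intensity trend, 0 against dry pollen and 1 against 4 h PT with quantile normalization, 1 in both with only expressed probe sets and 1 in both without RPS18A and RPL5A, an alternative chosen after seeing the data; without 1 array it was 0 to 2. The count at an adjusted p under 0.05 was 7 to 10 against dry pollen and 8 to 13 against 4 h PT without 1 array, and 7 against 4 h PT with quantile normalization (7 higher, 0 lower). For 4 h PT against dry pollen it was 1 (RPP0B, lower) with the larger offset, quantile normalization or only expressed probe sets, and 0 to 1 without 1 array (RPP0B without dry pollen replicate 1, RPS8A without 4 h PT replicate 3, both lower). The in vitro medians without 1 array were -0.23 to -0.09 (4 h PT against dry pollen), 0.05 to 0.15 (4 h PT against 0.5 h PT) and -0.29 to -0.16 (0.5 h PT against dry pollen). At a log2 limit of 9, 3 genes were expressed in SIV PT, 2 in dry pollen, 2 after 0.5 h and 1 after 4 h; at a signal of 100 these counts were 19, 17, 11 and 13, and at a log2 limit of 7 they were 18, 12, 9 and 11. Without 1 array they were 10 to 11, 5 to 6, 4 to 5 and 3 to 5. The sign turned for genes near 0. Against dry pollen, RPL4D was at -0.025 with quantile normalization, RPL9D at 0.012 with the larger offset, 0.047 with quantile normalization, 0.081 with median centring and -0.41 to 0.24 without 1 array, and RPP0B at 0.017 with median centring and -0.25 to 0.063 without 1 array. Against 4 h PT, RPS5B was at -0.14 with quantile normalization, RPL7A at -0.039 to 0.39 without 1 array (lowest without SIV PT replicate 1) and RPP0C at -0.025 to 0.62 (lowest without 4 h PT replicate 3). Same-numbered arrays of different conditions did not deviate together (correlations -0.02 to 0.04 over 21 pairs, against -0.05 to 0.03 over 63 pairs of other numbers). With the replicate number as a block, 2 genes changed in each comparison and 10 passed at an adjusted p under 0.05 in each; RPS14C (0.0686) and RPP0B (0.0669) then did not pass against 4 h PT, while RPL4A (0.0496) and RPP0A (0.022) passed against dry pollen. Most of the ribosomal protein signals were low, and a low signal limits what these arrays can resolve. The cause of these shifts was not tested.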
